A study of Homo sapiens with 9 samples.

Results

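The hypoxia response and glycolysis genes examined here were 36 named genes: oxygen sensors, target genes of the hypoxia-inducible factors (HIFs), glucose transporters and enzymes of glycolysis. They were chosen by their symbol, and EGLN3 was in addition chosen because its signal was lower with VitD in these same arrays. The other members, and the other pathway genes described below, were also listed with earlier results of these data known. The shares of called genes among them are thus descriptions. A transcript cluster of the array was paired with 33 of the 36 symbols, out of 17687 genes measured, and each of the 33 had 1 cluster. CA9, SLC16A3 and PFKFB4 are not analysed here.

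HepG2, a human cell line from a hepatocellular carcinoma, was profiled on 9 Clariom S arrays, with 3 arrays in each of 3 groups. CONT cells received Ad-C, an adenovirus without insert, and vehicle (DMSO). VDR cells received Ad-VDR, an adenovirus that carries human VDR, and vehicle, while VDR+VitD cells received Ad-VDR and 10 nM VitD (calcitriol) in DMSO. All cells thus carried an adenovirus for 48 h and were then kept in medium with vehicle or VitD for 4 h, and each of 3 independent experiments gave 1 array of every group. Control cells with VitD were not analysed here, so that an effect of VitD that needs no added VDR cannot be told apart from the response of VDR cells. The sources used here do not give the oxygen tension of the cultures, and neither HIF protein nor glucose use was part of these data.

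Values are the authors' log2 RMA values (background-corrected, quantile-normalized intensities, 1 value per transcript cluster), so that a difference of 1 is a 2-fold change. The virus labels held, since VDR was at 6.35 ± 0.39 in CONT cells, 17.85 ± 0.04 in VDR cells and 17.50 ± 0.07 in VDR+VitD cells (SD, n = 3 each). The VitD label held as well. CYP24A1, a known VDR target, was higher in VDR+VitD than in VDR arrays by 11.19, 10.30 and 10.34 in experiments 1, 2 and 3. Of the hepatocyte markers, 10 were measured, and all lay between group means of 13.39 and 17.72, while 11 of 14 markers of other liver cells lay below the array median in every group, with CD68 (10.91 to 11.35) the brightest. None of these 24 markers was called by limma in any comparison. Of all genes, 4.16% were called in VDR+VitD against VDR cells, 0.407% in VDR against CONT cells and 4.81% in VDR+VitD against CONT cells. For 24 genes, 0 calls is close to these shares and does not show that the markers were unchanged. Fewer cells with a transcript and less transcript per cell cannot be told apart in such bulk samples.

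In cells with enough oxygen, the prolyl hydroxylases encoded by EGLN1, EGLN2 and EGLN3 mark the HIF alpha subunits (HIF1A and EPAS1) for destruction through the VHL ubiquitin ligase. When oxygen is short the alpha subunits persist, pair with ARNT and switch on genes for glucose uptake, glycolysis, pH control, vessel growth and erythropoietin. EGLN3 and, to a lesser degree, EGLN1 are themselves HIF targets, which makes them both regulators and readouts of the pathway, and hepatic cell lines such as HepG2 are a classic model of it. The comparisons below ask whether other genes of the pathway followed EGLN3.

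EGLN3 was the member with the lowest signal in VDR+VitD cells relative to the other groups, and the other sensors did not follow it. Its log2 values were 9.74, 10.06 and 9.42 in the 3 CONT arrays, 9.45, 9.20 and 9.18 in the VDR arrays and 7.26, 7.60 and 7.43 in the VDR+VitD arrays. All 3 VDR+VitD arrays thus lay below all 6 others, whereas the CONT and VDR arrays overlapped. VDR+VitD cells were 3.60-fold lower than VDR cells, with differences of -2.19, -1.60 and -1.75 in experiments 1, 2 and 3, and 4.96-fold lower than CONT cells. These values chose the gene and are given without a test. In VDR against CONT cells, a comparison that shares the VDR arrays with the one that chose it, the log2 difference was -0.46 (standard error 0.17, adjusted p = 0.356 from limma).

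EGLN1, the main HIF prolyl hydroxylase of most cells, was at 9.90, 10.33 and 10.47 in CONT, 10.16, 10.54 and 10.33 in VDR and 10.29, 10.36 and 10.49 in VDR+VitD arrays. The 3 groups overlapped, and VDR+VitD differed from VDR cells by 0.04 on the log2 scale (95% confidence interval -0.31 to 0.38, adjusted p = 0.957 from limma). HIF1A, the alpha subunit found in most cells, was at 14.42, 14.74 and 14.54 in CONT, 14.47, 14.53 and 14.42 in VDR and 14.51, 14.59 and 14.30 in VDR+VitD arrays. EPAS1, the alpha subunit behind much of the erythropoietin response, was at 14.27, 14.44 and 14.29, then 14.27, 14.61 and 14.38, then 14.52, 14.37 and 14.31 in the same order of groups. Neither gene separated any pair of groups. With VitD the intervals of the log2 difference ran from -0.29 to 0.28 for HIF1A and from -0.31 to 0.27 for EPAS1, so that a change of either transcript by 1.5-fold (0.58 on the log2 scale) lay outside them.

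**Figure D1:**
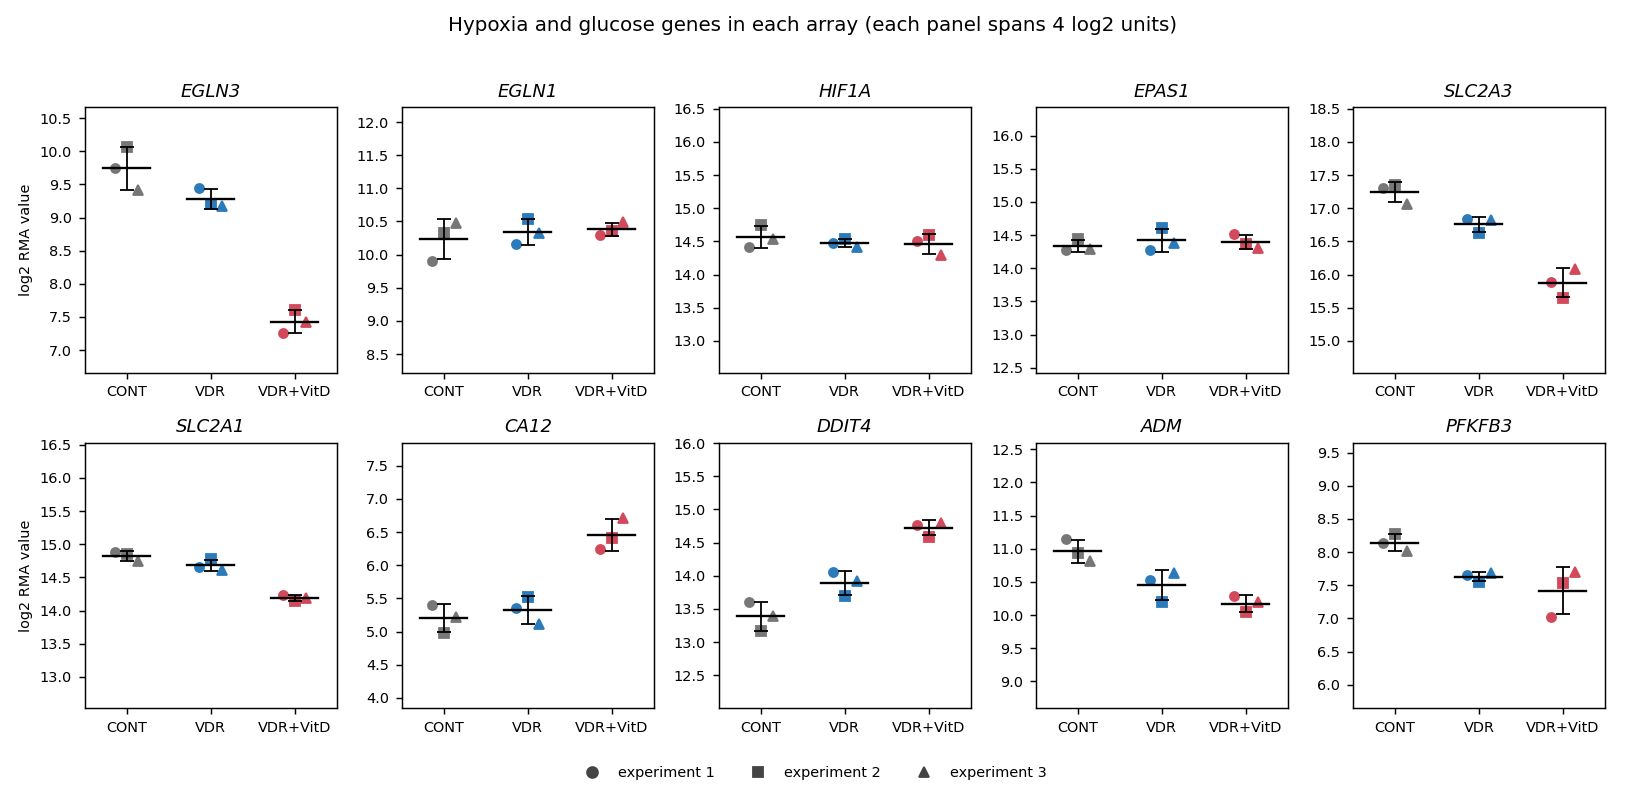
Log2 RMA values of 10 genes in the 9 arrays, by group (x axis), with the marker showing the experiment, the long bar the mean and the whiskers the SD (n = 3), and with the same span of the y axis in every panel. EGLN3, SLC2A3 and SLC2A1 lay lower in all 3 VDR+VitD arrays than in all other arrays and CA12 and DDIT4 lay higher, while EGLN1, HIF1A and EPAS1 overlapped in all 3 groups.

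Of the 32 members other than EGLN3, 3 were called with VitD in cells with Ad-VDR: SLC2A3 fell, and CA12 and DDIT4 rose. A gene counted as called where limma's adjusted p lay under 0.05 and the change exceeded 1.5-fold, up or down. The 3 genes are 9.38% of the 32, beside 4.16% of all 17687 genes tested (2.62% called higher and 1.53% called lower), in the comparison that chose EGLN3. All genes include dim ones. With genes left out whose group means all lay under 5, 759 of 12131 genes were called, and the same number of members. With no limit on the fold, SLC2A1 joined them, which made 4 of 32, beside 4.74% of all genes. The other 29 members other than EGLN3 were not called, with log2 differences between -0.49 (SLC2A1) and 0.43 (HK1). The interval of the difference lay within 1.5-fold in either direction for 24 of these 29 genes. The median log2 difference of the 32 genes was -0.02, and that of all genes was -0.02 as well. Groups did not overlap for 6 genes that were higher and 2 that were lower with VitD among the 32, beside 8.66% and 9.69% of all genes.

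The glucose transporters were the role in which every measured member lay lower with VitD. SLC2A3, which encodes the high-affinity transporter GLUT3, was at 17.30, 17.35 and 17.07 in CONT, 16.83, 16.63 and 16.82 in VDR and 15.89, 15.65 and 16.09 in VDR+VitD arrays. The 3 groups were fully separated, in descending order. SLC2A3 fell 1.84-fold with VitD (log2 difference -0.88, standard error 0.14, adjusted p = 0.00144 from limma). Its values in CONT arrays were near the top of the scale, whose highest value on any array was 18.24, where a difference can be understated. SLC2A1, which encodes the ubiquitous transporter GLUT1, was at 14.89, 14.85 and 14.74, then 14.65, 14.78 and 14.61, then 14.23, 14.15 and 14.19 in the same order of groups. All VDR+VitD arrays lay below the other 6, and the difference from VDR cells was 1.40-fold (log2 difference -0.49, standard error 0.12, adjusted p = 0.0287 from limma), under the fold threshold. Its adjusted p rose to between 0.0674 and 0.103 without VDR replicate 1 or 2 or any 1 of the VDR+VitD replicates, and was 0.0537 with only the 6 arrays compared and 0.0640 among the 8000 most variable genes.

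Of the secreted factors and genes of pH control, CA12 rose and 3 others were not called with VitD, beside 4.16% of all genes called. CA12, a carbonic anhydrase of the cell surface that helps to export acid, was at 5.40, 4.98 and 5.22 in CONT, 5.35, 5.52 and 5.11 in VDR and 6.24, 6.41 and 6.71 in VDR+VitD arrays. CONT and VDR arrays overlapped below the array median of 6.16 to 6.20, and all VDR+VitD arrays lay above it. CA12 rose 2.18-fold (log2 difference 1.13, standard error 0.16, adjusted p = 0.000496 from limma), with 0.89, 0.89 and 1.60 in the 3 experiments. No detection call was used here, so that its CONT and VDR signals are not shown to lie above background, and the fold is one between signals that can understate the change of the transcript. ADM, the vasodilator peptide adrenomedullin, VEGFA, the main growth factor of vessels, and STC2, the secreted stanniocalcin, had log2 differences of -0.28, 0.26 and -0.24 (adjusted p between 0.421 and 0.566 from limma).

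Among the 8 genes of mitophagy, collagen and histone hydroxylation and stress, DDIT4 rose and 7 did not pass the test. The share called was 12.5%, beside 4.16% of all genes. DDIT4, also known as REDD1, restrains mTORC1 when oxygen or energy is short. Its log2 values were 13.61, 13.17 and 13.39 in CONT, 14.05, 13.69 and 13.92 in VDR and 14.77, 14.59 and 14.80 in VDR+VitD arrays. The 3 groups did not overlap and followed an ascending order, and VitD raised the gene 1.78-fold (log2 difference 0.83, standard error 0.15, adjusted p = 0.00288 from limma). BNIP3 and BNIP3L, receptors of mitophagy, had log2 differences of 0.02 and -0.15. ANKRD37, KDM3A, a histone demethylase, P4HA1 and P4HA2, which hydroxylate collagen, and ERO1A, an oxidase of the endoplasmic reticulum, lay between -0.32 (ANKRD37) and 0.27 (P4HA2). ANKRD37 was also the member whose VDR arrays differed most among themselves (7.92, 7.51 and 8.36), and its interval ran from -0.75 to 0.11.

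No glycolytic enzyme was called with VitD, beside 4.16% of all genes. For 13 genes, 0 calls is close to that share. The 13 enzymes from hexokinase to lactate dehydrogenase (HK1, HK2, GPI, PFKL, PFKP, ALDOA, ALDOC, PGK1, PGAM1, ENO1, ENO2, PKM and LDHA) had log2 differences between -0.11 and 0.43 with a median of 0.01, 6 of them below 0 and 7 above. Only HK1 had an unadjusted p under 0.05 (log2 difference 0.43, adjusted p = 0.278 from limma). HK1, at 5.91, 5.67 and 6.04 in VDR and 6.13, 6.05 and 6.72 in VDR+VitD arrays, lay close to the array median, and its CONT arrays (6.38, 6.24 and 5.93) overlapped both groups. PGK1, the phosphoglycerate kinase often used as a HIF reporter, was at 13.87, 13.45 and 13.86 in VDR and 13.66, 13.57 and 13.97 in VDR+VitD arrays, a log2 difference of 0.01 (interval -0.34 to 0.36). PFKFB3, which makes the activator of phosphofructokinase, and PDK1, which inhibits pyruvate dehydrogenase, had -0.21 and -0.06 (adjusted p = 0.634 and 0.932 from limma). ALDOA, ENO1 and LDHA had group means from 16.79 to 17.36, as close to the top of the scale as SLC2A3.

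**Figure D2:**
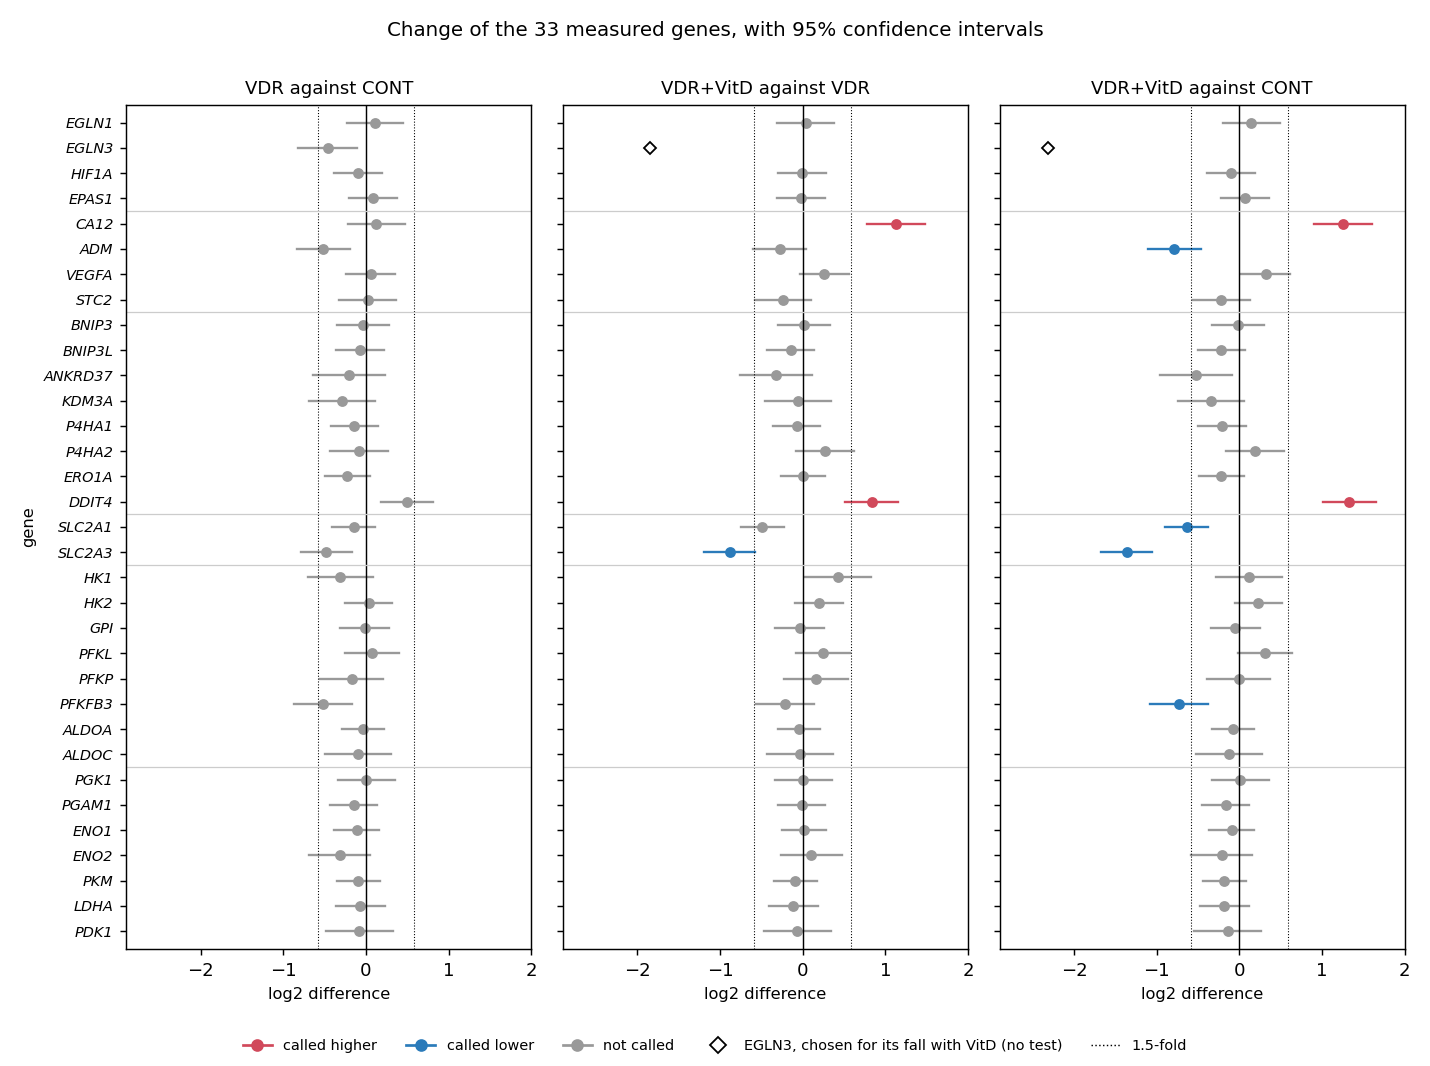
Log2 difference (x axis) of the 33 measured genes (y axis, in blocks by role) in the 3 comparisons, with lines for 95% confidence intervals, red and blue for genes called higher and lower, grey for genes not called and dotted lines at 1.5-fold. With VitD, CA12 and DDIT4 were called higher and SLC2A3 lower, EGLN3 (open diamond) is given without a test at -1.85 and -2.31, and the 13 glycolytic enzymes lay between -0.11 and 0.43.

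With Ad-VDR and no VitD, limma called none of the 33 members against CONT cells, beside 0.407% of all genes. An unadjusted p under 0.05 was found for 5 of the 33 (4 of the 32 without EGLN3), beside 9.50% of all genes. The interval of the difference lay within 1.5-fold in either direction for 24 of the 33, so that a missing call does not show an unchanged gene. Blocking on the experiment raised the count over all genes from 72 to 140 and left that of the members at 0. VDR arrays did not overlap CONT arrays for 1 member that was higher and 5 that were lower, beside 6.61% and 6.53% of all genes. The 5 with an unadjusted p under 0.05 were ADM, DDIT4, SLC2A3, PFKFB3 and EGLN3, with log2 differences of -0.51, 0.50, -0.48, -0.51 and -0.46 and adjusted p from 0.226 to 0.356. With an intensity trend in limma, the adjusted p of SLC2A3 was 0.0264. ADM was at 11.15, 10.93 and 10.81 in CONT, 10.53, 10.19 and 10.63 in VDR and 10.29, 10.04 and 10.19 in VDR+VitD arrays, so that the VDR arrays lay below the CONT arrays without overlap. PFKFB3 was at 8.14, 8.27 and 8.02, then 7.65, 7.55 and 7.69, then 7.02, 7.53 and 7.70 in the same order. Its VDR arrays too were separate from CONT and overlapped VDR+VitD. The median log2 difference of the 33 genes was -0.09, beside 0.00 over all genes. Below 0 lay 24 of the 33 (23 of the 32 without EGLN3), beside 8631 of all 17687 genes.

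Against CONT cells, VDR+VitD cells had 6 of the 32 members other than EGLN3 called, 2 higher and 4 lower, or 18.8% beside 4.81% of all genes (2.69% higher and 2.12% lower). EGLN3 was chosen on the same VDR+VitD arrays and is left out of these counts. With dim genes left out, 876 of 12131 genes were called here. The same 6 genes were those with an adjusted p under 0.05 at any fold, beside 5.81% of all genes, and groups did not overlap for 3 of the 32 that were higher and 9 that were lower, beside 10.1% and 11.5%. SLC2A3 was 2.57-fold lower (log2 difference -1.36, standard error 0.14, adjusted p = 2.16e-05 from limma), SLC2A1 1.55-fold lower (adjusted p = 0.00431), ADM 1.73-fold lower (adjusted p = 0.00422) and PFKFB3 1.65-fold lower (adjusted p = 0.0147). DDIT4 was 2.51-fold higher (log2 difference 1.33, standard error 0.15, adjusted p = 3.49e-05) and CA12 2.38-fold higher (adjusted p = 0.000167). ADM and PFKFB3 were called here and in neither of the other comparisons, where their differences of -0.51 (ADM) and -0.51 (PFKFB3) with Ad-VDR and of -0.28 and -0.21 with VitD did not pass the test. The call of PFKFB3 was lost on leaving out CONT replicate 2 (adjusted p = 0.0689), and equally on leaving out VDR+VitD replicate 1 (adjusted p = 0.0645).

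**Figure D3:**
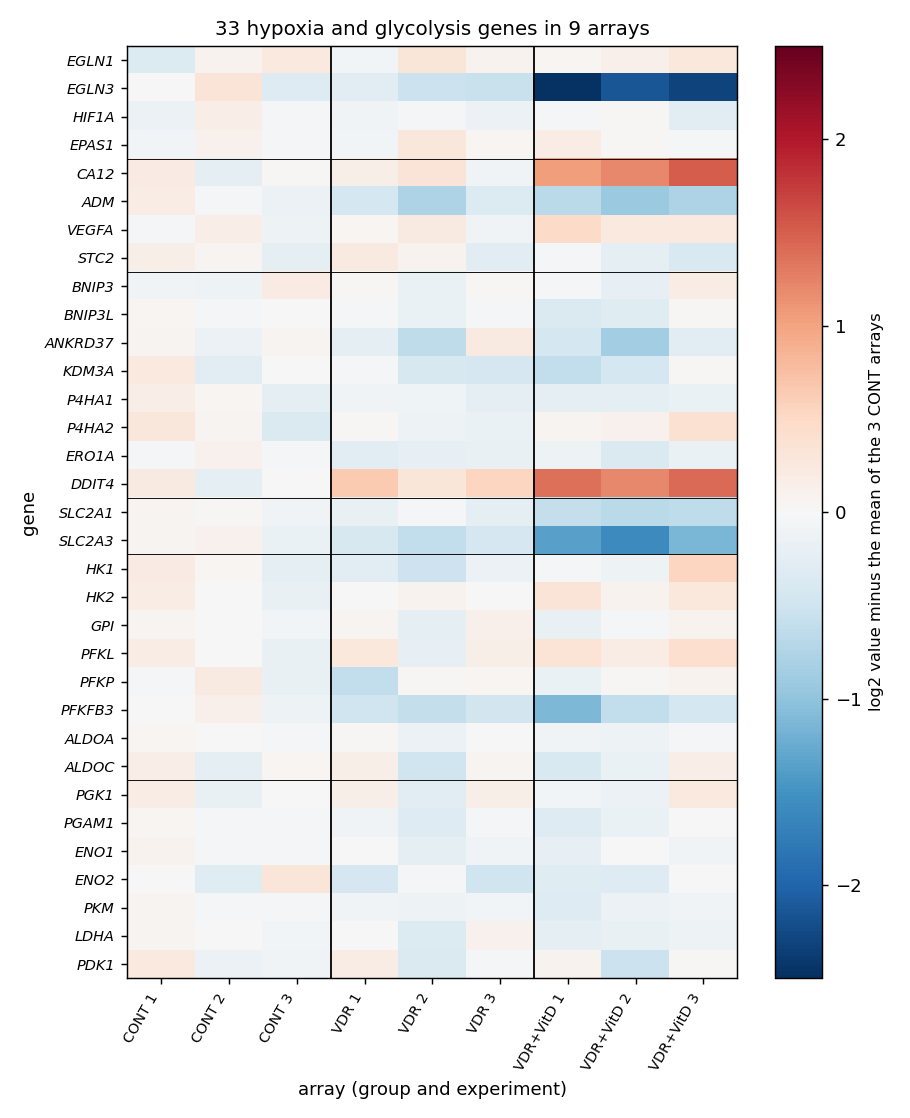
Log2 value of each of the 33 genes (rows, in blocks by role) in each array (columns, by group and experiment) minus the mean of the 3 CONT arrays, from blue (lower) to red (higher). In the 3 VDR+VitD arrays the values ran from -2.48 to -2.14 for EGLN3, from -1.59 to -1.15 for SLC2A3 and from -0.92 to -0.67 for ADM, and CA12 and DDIT4 lay at 1.04 or above.

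The promoters of the members were searched for the core of the hypoxia-response element. The letters searched were ACGTG and GCGTG and, for the other strand, CACGT and CACGC, in the 250 bases before each RefSeq gene start, with overlapping matches counted as 1 site. A site was found before at least 1 listed start of 25 of the 30 members with an entry, and before 32 of the 47 starts of these genes, or 68.1%, beside 43.2% of 35116 starts of all genes. VEGFA, BNIP3L and SLC2A3 had no entry. The sequences below, from RefSeq on GRCh38.p14, are those of EGLN3, of the members with a difference past the adjusted p with VitD that had an entry (SLC2A1, CA12 and DDIT4), of EPO, and of PGK1 as a gene that was not called. They read 5′ to 3′ on the strand of the gene and end at the base before its start, and capitals mark the sites.
EGLN3 (chr14:33951075-33951324, minus strand): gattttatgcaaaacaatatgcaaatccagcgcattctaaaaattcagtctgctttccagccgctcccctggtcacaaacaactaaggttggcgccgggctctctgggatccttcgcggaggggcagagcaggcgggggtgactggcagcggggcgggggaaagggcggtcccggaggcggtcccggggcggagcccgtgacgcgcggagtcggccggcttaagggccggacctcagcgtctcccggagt
SLC2A1 (chr1:42958869-42959118, minus strand): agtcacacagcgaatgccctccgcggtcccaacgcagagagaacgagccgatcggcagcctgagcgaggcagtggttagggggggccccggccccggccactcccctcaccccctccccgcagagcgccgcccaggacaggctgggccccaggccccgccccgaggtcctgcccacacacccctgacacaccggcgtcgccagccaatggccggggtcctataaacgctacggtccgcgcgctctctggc
CA12 (chr15:63381847-63382096, minus strand): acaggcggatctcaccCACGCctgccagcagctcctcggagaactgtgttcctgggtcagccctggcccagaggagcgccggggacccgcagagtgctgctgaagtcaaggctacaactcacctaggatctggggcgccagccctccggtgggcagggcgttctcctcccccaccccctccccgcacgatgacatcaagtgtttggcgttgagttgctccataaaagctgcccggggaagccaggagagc
DDIT4 (chr10:72273674-72273923, plus strand): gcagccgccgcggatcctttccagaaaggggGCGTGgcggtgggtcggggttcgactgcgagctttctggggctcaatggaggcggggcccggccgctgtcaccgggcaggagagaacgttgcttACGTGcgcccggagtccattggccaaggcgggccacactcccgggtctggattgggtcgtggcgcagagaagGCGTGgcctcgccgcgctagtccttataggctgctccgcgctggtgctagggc
EPO (chr7:100720218-100720467, plus strand): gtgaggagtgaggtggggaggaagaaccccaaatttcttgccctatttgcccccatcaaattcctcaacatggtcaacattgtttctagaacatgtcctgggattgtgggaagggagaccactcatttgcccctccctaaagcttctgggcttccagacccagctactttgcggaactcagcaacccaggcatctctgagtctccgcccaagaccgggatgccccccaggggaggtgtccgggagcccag
PGK1 (chrX:78103998-78104247, plus strand): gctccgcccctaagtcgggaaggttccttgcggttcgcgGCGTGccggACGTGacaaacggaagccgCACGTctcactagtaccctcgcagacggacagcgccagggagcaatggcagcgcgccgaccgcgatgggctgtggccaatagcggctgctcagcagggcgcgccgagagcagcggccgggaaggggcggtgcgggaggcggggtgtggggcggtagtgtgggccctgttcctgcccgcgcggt
DDIT4 and PGK1 held 3 sites each in these windows and CA12 held 1, while no match lay in those of EGLN3, SLC2A1 and EPO. A match is a description of the letters only, and the best known hypoxia-response elements of several of these genes, EPO among them, lie outside the window.

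Other genes of the pathway, from 4 lists of 95 genes that are not members, moved in both directions with VitD. Of the 95, 8 were called, 5 higher and 3 lower, or 8.42% beside 4.16% of all genes, with a median log2 difference of -0.03 beside -0.02 over all genes.

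Of 15 other genes of oxygen sensing, CITED2 was called higher with VitD and none was called lower. The share called was 6.67%, beside 4.16% of all genes (2.62% higher and 1.53% lower). Groups did not overlap for 3 of the 15 that were higher and 3 that were lower, beside 8.66% and 9.69% of all genes. CITED2, a HIF target that competes with the HIF alpha subunits for the coactivator CREBBP, was at 12.41, 11.86 and 12.22 in VDR and 13.14, 12.91 and 13.25 in VDR+VitD arrays and rose 1.91-fold (log2 difference 0.94, standard error 0.17, adjusted p = 0.00287 from limma). EGLN2, the third of the prolyl hydroxylases, was at 9.34, 9.13 and 9.23 in VDR and 9.83, 9.87 and 9.69 in VDR+VitD arrays. All 3 VDR+VitD arrays lay above the VDR and the CONT arrays, with a 1.48-fold difference from VDR cells (adjusted p = 0.0145), just under the fold threshold (past it without VDR replicate 1 or VDR+VitD replicate 3), and a 1.60-fold difference from CONT cells that was called (adjusted p = 0.00334). EGLN3 lower, EGLN1 overlapping and EGLN2 higher was thus the pattern of the 3 hydroxylases in VDR+VitD arrays. VHL and ARNT had log2 differences of -0.04 and -0.41 with VitD (adjusted p = 0.958 and 0.109).

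Among 48 other HIF targets, EPO, WSB1, MAFF and HMOX1 rose with VitD and EFNA1 and MXI1 fell. These are 6 of the 48, or 12.5% beside 4.16% of all genes. EPO, the hormone of red cell formation and the gene through which the HIFs were found, was at 6.47, 6.72 and 6.87 in CONT, 6.81, 6.56 and 6.77 in VDR and 9.36, 8.81 and 9.70 in VDR+VitD arrays. CONT and VDR arrays overlapped, and EPO rose 5.97-fold with VitD (log2 difference 2.58, standard error 0.19, adjusted p = 6.51e-07 from limma). This was opposite in sign to EGLN3 in all 3 experiments, with 2.55, 2.25 and 2.93. WSB1, a subunit of a ubiquitin ligase, rose 1.81-fold (adjusted p = 0.00201), MAFF, a small MAF transcription factor, 1.80-fold (adjusted p = 0.00672) and HMOX1, the haem oxygenase, 1.73-fold (adjusted p = 0.00289). EFNA1, an ephrin ligand, fell 1.64-fold (adjusted p = 0.0235) and MXI1, a partner of MAX, 1.54-fold (adjusted p = 0.00841). EFNA1 and MXI1 were named after their values had been seen. EFNA1 was not called without VDR replicate 1 or 3 or VDR+VitD replicate 1 or 2 (adjusted p between 0.0517 and 0.118), and MXI1 fell under the fold threshold without VDR replicate 2 or VDR+VitD replicate 2 (log2 differences of -0.54 and -0.58). The other 42 targets did not pass the test, which does not show them unchanged. Groups did not overlap for 10 of the 48 that were higher and 8 that were lower, beside 8.66% and 9.69% of all genes.

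**Figure D4:**
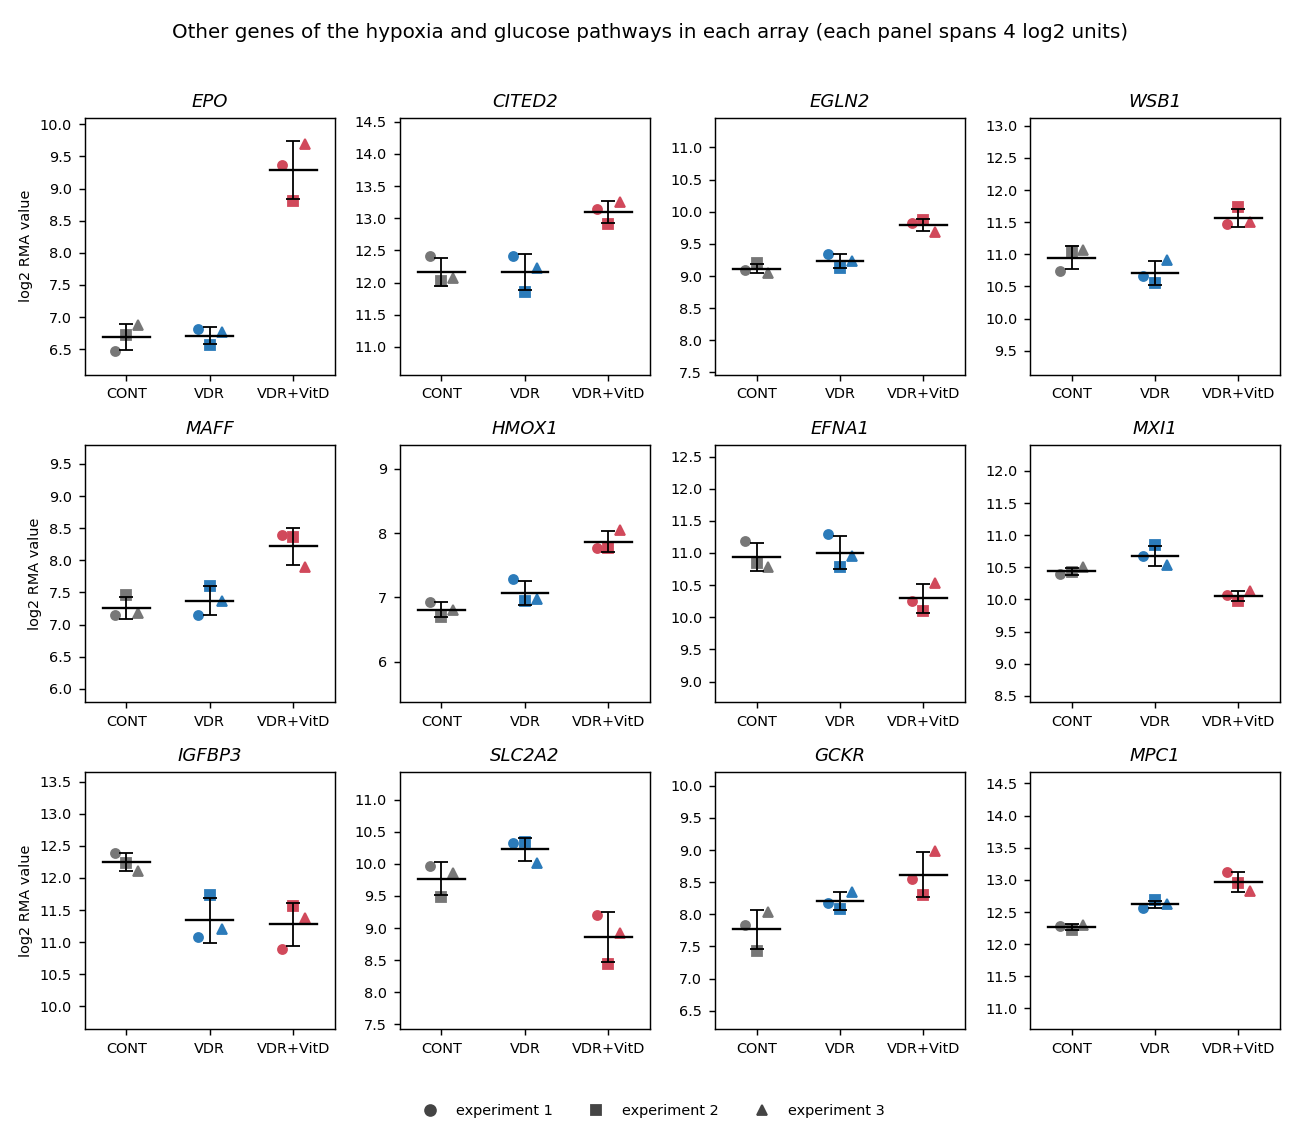
Log2 RMA values of 12 other genes of the hypoxia and glucose pathways in the 9 arrays, by group (x axis), with the marker showing the experiment, the long bar the mean and the whiskers the SD (n = 3), and with the same span of the y axis in every panel. EPO lay between 8.81 and 9.70 in VDR+VitD arrays and between 6.47 and 6.87 in the 6 others, and SLC2A2 lay lowest in VDR+VitD arrays.

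The other genes of glucose breakdown gave 1 call with VitD. Of 20 such genes SLC2A2 fell, and 19 were not called. The share called was 5%, close to the 4.16% of all genes. SLC2A2 encodes GLUT2, the low-affinity transporter typical of hepatocytes, and was at 9.97, 9.48 and 9.86 in CONT, 10.32, 10.34 and 10.01 in VDR and 9.21, 8.44 and 8.93 in VDR+VitD arrays. The VDR arrays were the highest and the VDR+VitD arrays the lowest, without overlap, and the fall with VitD was 2.57-fold (log2 difference -1.36, standard error 0.19, adjusted p = 0.000384 from limma). For SLC2A1, SLC2A2 and SLC2A3, the 3 glucose transporters described here, the VDR+VitD arrays thus lay below both other groups. GAPDH, the enzyme between aldolase and PGK1, had a log2 difference of 0.13 (adjusted p = 0.733). None of 12 genes of the pyruvate dehydrogenase complex and of pyruvate import was called by limma, beside 4.16% of all genes. For 12 genes, 0 calls is close to that share. Beside 2677 of all 17687 genes, 1 of the 12 had an unadjusted p under 0.05. This was MPC1, a subunit of the mitochondrial pyruvate carrier, with 12.57, 12.68 and 12.62 in VDR and 13.13, 12.95 and 12.83 in VDR+VitD arrays, a log2 difference of 0.35 (adjusted p = 0.167).

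In VDR against CONT cells, limma called none of the 95 genes, beside 0.407% of all genes, and 13 had an unadjusted p under 0.05, beside 9.50% of all genes. IGFBP3, which binds insulin-like growth factors, had the lowest p of the HIF targets, with a log2 difference of -0.90 (adjusted p = 0.0638), and a block for the experiment brought it past the threshold (adjusted p = 0.0292), as did leaving out VDR replicate 2 (adjusted p = 0.0238) and, separately, VDR+VitD replicate 1 (adjusted p = 0.0491). RBX1, of the VHL ligase, SLC2A2 and MPC1 had the lowest p of the other lists, with -0.53, 0.45 and 0.36 (adjusted p = 0.347, 0.472 and 0.346). In VDR+VitD against CONT cells 12 of the 95 were called, 8 higher and 4 lower, or 12.6% beside 4.81% of all genes. EPO was 6.08-fold higher (adjusted p = 5.68e-07), HMOX1 2.08-fold higher (adjusted p = 0.000223) and IGFBP3 1.96-fold lower (adjusted p = 0.00615). GCKR, the regulator of glucokinase, was 1.80-fold higher (adjusted p = 0.0129), MPC1 1.63-fold higher (adjusted p = 0.00268) and SLC2A2 1.88-fold lower (adjusted p = 0.00919). The call of SLC2A2 was lost without CONT replicate 1 (adjusted p = 0.0510), and that of GCKR without CONT replicate 2 (adjusted p = 0.0702) and also when VDR+VitD replicate 3 was left out (adjusted p = 0.0633). WSB1 lost its call without CONT replicate 1 or VDR+VitD replicate 2 (adjusted p = 0.0973 and 0.0961 from limma). EFNA1 lost its call without any 1 CONT replicate, or VDR+VitD replicate 1 or 2 (adjusted p between 0.0516 and 0.163).

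The 3 member calls with VitD were kept without any single array and with the experiment as a block. None was kept by the limma test (treat) that asks whether a change exceeds 1.5-fold (adjusted p = 0.181 for CA12 and 1.00 for SLC2A3 and DDIT4), and of the 95 other genes EPO alone was called by it.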

How the data were processed

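HepG2 cells in 3 groups of 3 Clariom S arrays were mapped to group and experiment from the sample labels. The deposited table holds log2 values of 21448 transcript clusters, which the authors made by RMA in Transcriptome Analysis Console 4.0.2 per the submitters' processing notes. Array medians lay between 6.16 and 6.20, and quantile normalization by the authors hides a shift of most genes in 1 direction. Symbols came from the platform annotation, checked by Entrez identifier against RefSeq. They named 17709 clusters, and averaging the clusters of the 20 genes with several left 17687 genes. Arrays give no depth in counts, and 3 arrays per group limit the precision.

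All 9 arrays entered 1 limma fit with group as the only factor (limma 3.58.1 under R 4.3.3), and the Benjamini-Hochberg adjustment ran over all genes. Calls needed an adjusted p under 0.05 together with more than a 1.5-fold change. No p is given for EGLN3 in comparisons that hold the VDR+VitD arrays, and the report's counts leave it out there. The steps were tested on simulated data with independent noise in each array and no effect of the experiment. That test thus does not cover arrays that share an experiment, and its outcome is not given here. The labels number 3 independent experiments, which pair the arrays. Deviations from group means correlated across genes with r from 0.042 to 0.145 for the 9 pairs that share an experiment and from -0.096 to 0.010 in the 18 other pairs of different groups. Alternatives were the experiment as a block, the 6 arrays compared only, filters on dim and on less variable genes, an intensity trend, a test against the fold threshold, median-centred arrays, the brightest cluster of a gene and each array left out.

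The members and lists were chosen with earlier results of these data known. Named in full were the 4 oxygen sensors and every member called, or with an adjusted p under 0.05 with VitD. Named from each list of other genes were up to 4 called genes with the largest change per comparison, or the gene with the lowest p. Outside these rules, values are also given for EFNA1, MXI1, VHL, ARNT and GAPDH and for further members such as HK1, PGK1 and ANKRD37.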

Additional observations from a re-analysis of the deposited data

How the results depend on the processing

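The count of members called with VitD stayed at 3 under every alternative but the limma test of a change beyond 1.5-fold, which called 0, and 0 with an adjusted p under 0.05. In VDR+VitD against CONT cells that test kept 3 of the 6 members called (4 of 7, at any fold too, with EGLN3 counted, which was chosen on these arrays). It called 1 of the 95 other pathway genes in place of 8 with VitD and in place of 12 against CONT cells, and 188, 11 and 207 genes in all in place of 735 (VitD), 72 (Ad-VDR) and 851 (both against CONT). In VDR against CONT cells, all genes called numbered 140 with the experiment as a replicate block, 141 among the 8000 most variable genes and 142 with an intensity trend. Under the intensity trend 1 member, SLC2A3, had an adjusted p under 0.05 there (0.0264 from limma) with a change under 1.5-fold. Each of these 3 settings called 1 other pathway gene, IGFBP3. Leaving out each array in turn gave 3 members called with VitD (3 to 4 at any fold), 0 with Ad-VDR and 6 to 7 in VDR+VitD against CONT cells with EGLN3 counted. It gave 6 to 10 other pathway genes with VitD, 0 to 1 with Ad-VDR and 9 to 14 against CONT cells, and 622 to 725, 27 to 69 and 732 to 860 genes in all. The count with Ad-VDR was 27 on leaving out CONT replicate 2, 35 for VDR replicate 3 and 37 for VDR replicate 1. The median log2 difference of the members with VitD was near 0 and changed sign, from -0.09 to 0.03, with the array left out. Apart from IGFBP3, the block changed no call of a gene named here. The causes of these differences were not tested. Low signals limit what a missing call of a dim gene shows.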
